A study of Homo sapiens with 20 samples.

Results

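Open chromatin found in WT but not in GPX2 KO endoderm was described through 248 ATAC-seq peaks. They are the WT peaks on chromosomes 1 to 22 with a −log10 q of at least 5 that no KO peak overlaps by even 1 bp, and they make up 0.420% of the 59105 WT peaks that are as strong. The −log10 q is the peak caller's score for a peak against its surroundings, and a value of 5 is called strong here. The peaks were chosen by these calls, so their scores, heights, lengths and absence from KO are descriptions and carry no test.

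The cells are HUES8, an established human embryonic stem cell line that carries inducible Cas9, differentiated to definitive endoderm with activin A and CHIR99021 and then kept from day 4 as spheroids without lineage signals until day 8. GPX2 KO lines are clones in which CRISPR/Cas9 with 3 guides removed the GPX2 gene. ATAC-seq covers 2 WT and 2 KO libraries at day 8. Bulk RNA-seq at day 8 covers 2 libraries each of WT, WT with H2O2 (10 nM in the labels, while the study's methods give a different unit), KO, and KO with selenite (100 pM). Bulk RNA-seq at day 6 covers 2 WT and 2 KO libraries labelled as foregut endoderm, although their titles carry the mark of the spontaneous differentiation. KO is clone KO2 in the ATAC-seq and clone KO1 in the bulk RNA-seq according to the study, so peaks and RNA of KO would come from different clones of the line. The count table leaves the clone of the RNA uncertain, since both KO columns are headed ko1 where the titles read ko1 and ko2, and 1 of the KO columns with selenium is headed ko2. The genotype label of every day 8 bulk library reads WT, and KO was taken from the titles. The study calls its replicates biological, but the labels do not tie libraries to cultures, and p-values here measure the spread between libraries.

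ATAC-seq cuts DNA where nucleosomes leave it exposed, and a peak marks a promoter, enhancer or other region that proteins can reach. In endoderm, GATA and FOXA factors bind and open many enhancers, TCF7L2 and LEF1 carry the WNT signal to DNA, HNF4A acts in gut and liver genes, and CTCF holds chromatin loops in place. GPX2 is a glutathione peroxidase of the gut epithelium that reduces hydrogen peroxide.

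The central 300 bases of 7 of the peaks are printed here from the plus strand of hg38, to show what the sequences of the highest peaks and of peaks at expressed genes look like. Capitals mark every match to the motifs searched, on either strand. The first 5 belong to the peaks ranked 1, 2, 3, 5 and 9 by −log10 q, and the last 2 are those at the starts of MXRA8 and APOH, which were added after their values were seen because no other gene with a peak at its start had enough RNA to be tested.
KCNJ15 intron (chr21:38219097-38219396): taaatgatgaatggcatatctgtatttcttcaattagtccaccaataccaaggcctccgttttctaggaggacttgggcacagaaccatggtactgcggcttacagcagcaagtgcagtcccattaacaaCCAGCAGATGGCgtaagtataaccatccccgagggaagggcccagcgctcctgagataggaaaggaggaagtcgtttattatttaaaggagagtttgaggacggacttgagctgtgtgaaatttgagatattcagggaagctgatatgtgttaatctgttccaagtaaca
OTUD7A (chr15:31650012-31650311): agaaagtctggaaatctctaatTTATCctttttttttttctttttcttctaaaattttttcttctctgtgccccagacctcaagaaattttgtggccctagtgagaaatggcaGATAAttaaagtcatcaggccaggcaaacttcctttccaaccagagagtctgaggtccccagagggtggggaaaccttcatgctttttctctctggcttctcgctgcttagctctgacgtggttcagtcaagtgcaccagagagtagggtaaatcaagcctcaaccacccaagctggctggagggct
LMBR1 intron (chr7:156764071-156764370): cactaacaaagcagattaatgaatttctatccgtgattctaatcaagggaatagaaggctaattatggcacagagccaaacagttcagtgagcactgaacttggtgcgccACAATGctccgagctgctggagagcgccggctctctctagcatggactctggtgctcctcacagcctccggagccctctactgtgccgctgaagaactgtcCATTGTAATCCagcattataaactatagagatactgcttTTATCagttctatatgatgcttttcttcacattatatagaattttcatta
TCF7L1 intron (chr2:85300464-85300763): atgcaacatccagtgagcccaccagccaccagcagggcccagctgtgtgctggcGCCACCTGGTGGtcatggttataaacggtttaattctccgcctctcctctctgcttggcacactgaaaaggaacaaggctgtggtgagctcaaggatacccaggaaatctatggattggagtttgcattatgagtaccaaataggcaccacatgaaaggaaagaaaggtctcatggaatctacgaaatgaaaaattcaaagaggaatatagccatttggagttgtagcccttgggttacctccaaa
near NAXD (chr13:110593558-110593857): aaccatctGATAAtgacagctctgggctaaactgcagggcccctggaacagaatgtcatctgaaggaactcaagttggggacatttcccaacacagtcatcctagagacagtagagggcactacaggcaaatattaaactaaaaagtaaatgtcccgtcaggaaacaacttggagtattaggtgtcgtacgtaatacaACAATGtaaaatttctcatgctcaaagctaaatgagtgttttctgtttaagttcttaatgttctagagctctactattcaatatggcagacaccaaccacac
MXRA8 start (chr1:1361998-1362297): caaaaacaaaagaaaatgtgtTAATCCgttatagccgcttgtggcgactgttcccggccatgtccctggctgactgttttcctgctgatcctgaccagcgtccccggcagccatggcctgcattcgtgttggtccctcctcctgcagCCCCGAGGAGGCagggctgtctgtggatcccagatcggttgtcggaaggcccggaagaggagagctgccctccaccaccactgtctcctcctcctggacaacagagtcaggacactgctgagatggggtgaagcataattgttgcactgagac
APOH start (chr17:66255325-66255624): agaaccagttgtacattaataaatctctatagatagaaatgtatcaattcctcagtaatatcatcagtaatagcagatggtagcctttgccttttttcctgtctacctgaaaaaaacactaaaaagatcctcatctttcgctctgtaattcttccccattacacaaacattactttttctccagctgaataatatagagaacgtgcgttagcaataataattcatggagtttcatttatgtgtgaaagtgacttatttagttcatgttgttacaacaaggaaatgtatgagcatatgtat
The highest of all the peaks (chr21:38219155-38219338) lay in an intron of KCNJ15, a potassium channel gene, and its window holds 1 match to the long form of the CTCF motif. The second window lies in OTUD7A, a deubiquitinase gene, and holds a GATA match on either strand. The third lies in an intron of LMBR1 and holds GATA, SOX and OTX matches, 2 of which overlap in a single capital run. The window in TCF7L1, a WNT pathway repressor, holds a match to the CTCF motif called b below and to its long form, which overlap. The APOH window holds none of the motifs.

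How rarely a strong peak lacked a partner was read from the peak scores. Of the 59105 strong WT peaks, 46722 (79.0%) overlapped a KO peak that was also strong, 11781 (19.9%) overlapped a KO peak with a −log10 q of 2 to 5, 354 (0.599%) overlapped one of 1 to 2, and 248 overlapped none. The share of WT peaks without a KO peak was 54.9% at a −log10 q of 1 to 2, 22.7% at 2 to 3, 6.11% at 3 to 5, 0.619% at 5 to 10 (244 of 39433) and 0.0244% at 10 to 20 (4 of 16359). None of the 3313 WT peaks of 20 and over lacked a KO peak. In the other direction, 262 of 54307 strong KO peaks lacked a WT peak, and the KO shares went from 39.5% at 1 to 2 to 0.683% at 5 to 10 and 0.141% at 10 to 20. The authors merged the libraries of a genotype before calling, so there is 1 set of peaks per genotype, no replicate check of presence, and no read depth behind a peak in the files.

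Most of the 248 peaks sat near the limit of the rule. Their −log10 q had a median of 5.70 and a maximum of 13.8, with 145 below 6 and 4 of at least 10. The 3 just inside the limit, nearest to PRKCB, PDCL3P5 and ENSG00000289369, scored 5.00001, 5.00779 and 5.01418, and the 3 WT-only peaks just outside scored 4.99458, 4.99274 and 4.99245. Their fold over background ran from 1.74 to 5.30 with a median of 3.47. They were short, with a median of 313 bp (quartiles 260.5 and 453 bp) and 12 over 1 kb, against a median of 1040 bp for the 48874 shared strong WT peaks in the same range of scores. KO-only strong peaks had quartiles of 252 and 373 bp. Since short peaks differ from long ones in other ways, the peaks are compared below with the 4973 shared strong WT peaks in that score range of up to 500 bp.

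**Figure D1:**
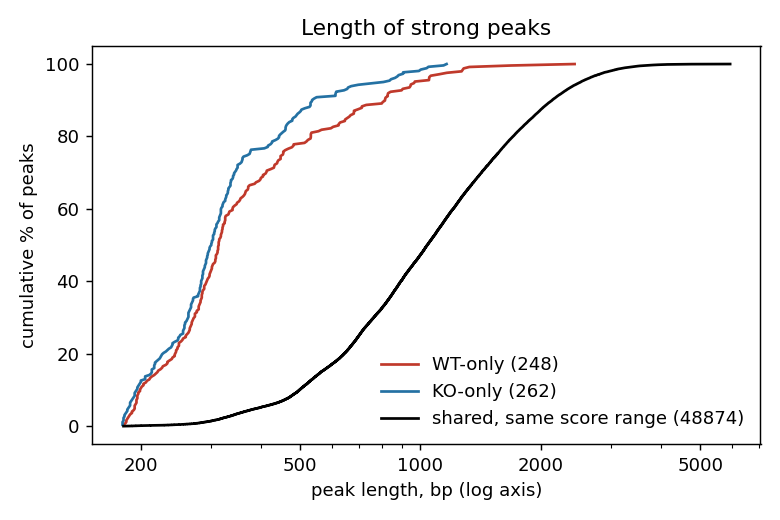
Cumulative percent of peaks against peak length in bp (log axis) for WT-only strong peaks, KO-only strong peaks and shared strong WT peaks in the same range of −log10 q. The WT-only curve, with a median of 313 bp, and the KO-only curve just left of it lie to the left of the shared curve with its median of 1040 bp.

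Open chromatin of KO was often close by. The nearest KO peak lay 407 bp away at the least and 3636 bp away at the median, with 19 peaks within 1 kb of one, 151 within 5 kb and 185 within 10 kb. The nearest other WT peak lay at a median of 3438.5 bp.

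By position the peaks were mostly distal. Of the 248, 124 (50.0%) lay in introns, 82 (33.1%) between genes, 29 (11.7%) in exons and 13 (5.24%, 95% exact interval 2.82 to 8.80) at a gene start, meaning within 1 kb of it. The last share was 17.8% among shared strong peaks of the same scores and 5.55% among short shared ones, and the share in introns of the latter was 49.4%. The nearest gene start belonged to a protein-coding gene for 65 peaks (26.2%), against 30.4% for short shared peaks, to a lncRNA for 74 and to a processed pseudogene for 51. The median distance from the middle of a peak to the nearest gene start was 18.3 kb. Intervals on shares of regions cover counting error only, since regions of 1 call set are not replicates of a condition.

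The peaks did not pile up in a few places. Chromosome 2 held 28, chromosome 1 held 21, chromosome 6 held 18, and chromosomes 3 and 12 held 17 each. As a share of strong WT peaks, they were most frequent on chromosome 13 (0.627%), chromosome 2 (0.583%) and chromosome 12 (0.570%). Over bins of 1 Mb, 230 bins held 1 peak, 9 held 2 and none held more. No gene was the nearest to 3 or more of the peaks, and ACTR6P1 and MMEL1 were nearest to 2 each.

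Sequence that occurs in several places of the genome was more frequent among them. In 44 of the 248 windows (17.7%, interval 13.2 to 23.1) over 50% of the 31-base words also occur elsewhere in hg38, against 22 of 262 KO-only windows (8.40%, interval 5.34 to 12.4) and 322 of 4973 short shared windows (6.47%). Among the peaks of up to 500 bp the share was 17.6% (34 of 193). Of these 44, 36 had another copy on an autosome, 19 had a copy with a KO peak (strong in 12) and 21 had a copy with a WT peak. The peak in OTUD7A (−log10 q of 12.1) is such a case: all of its words are repeated and its copy carries a KO peak of 4.67 and a WT peak of 4.998. The peak nearest to FBL, the gene of a nucleolar methyltransferase, scored 8.37, and its copy carries a KO peak of 8.59 and a WT peak of 4.32. The KO-only windows gave a like picture. Of those 22, 20 had another copy on an autosome, 10 had a copy with a WT peak (strong in 7) and 11 had a copy with a KO peak. How the aligner placed reads between copies, and its part in these calls, was not tested.

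The 20 highest peaks followed the same pattern, with 14 in introns, 4 between genes and 2 in exons, and 4 with mostly repeated sequence. The 4 of at least 10 lay in KCNJ15 (13.8), OTUD7A (12.1), LMBR1 (10.7) and ZFPM2 (10.4), the last a cofactor of GATA proteins. Those ranked 5 to 10 lay in TCF7L1 (9.74), in DCDC1 (9.72), between genes 4825 bp from CHST10 (9.63), in PDE11A (9.63), 21.8 kb from NAXD (9.43), a metabolite repair enzyme, and in STX18-AS1 (9.29). The other ten lay in RALGAPA1, TTC34, PAFAH1B2P2, FBXL4, UGT8, RAPGEF3, MIR124-2HG and FCGBP, and between genes nearest to ENSG00000286040 and to CPHXL, with scores from 8.37 to 9.11. RNA of several genes around them is given further on.

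Motif matches were counted in the same central windows as a description of their letters, for 18 short motifs. GATA (GATAA) matched 114 windows (46.0%, interval 39.6 to 52.4), against 40.8% of KO-only and 40.8% of short shared windows. It is the shortest of the motifs searched, so its share cannot be ranked against those of longer ones. The share expected by chance was not computed. LEF and TCF (CTTTGAT) matched 21 windows (8.47%, interval 5.32 to 12.7), against 8 KO-only windows (3.05%, interval 1.33 to 5.93) and 4.62% of short shared windows, so that the intervals of WT-only and KO-only windows overlap slightly. HNF4 (CAAAGTCCA) matched 3 windows (1.21%, interval 0.250 to 3.49), against 0 of 262 KO-only windows, which allows a share of up to 1.40% by the exact interval, and 0.664% of short shared windows. At counts this low the intervals overlap.

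For CTCF the shares were lower than in KO-only windows when peaks of every length were taken, and this depended on peak length for the long form. The letters AGGGGGC (CTCF a) matched 17 windows (6.85%, interval 4.04 to 10.75), against 8.02% of KO-only (interval 5.03 to 11.99) and 10.6% of short shared windows. The intervals of WT-only and KO-only windows overlap for this motif. No interval here is corrected for the number of motifs searched. The letters AGGTGGC (CTCF b) matched 21 windows (8.47%, interval 5.32 to 12.7), against 46 KO-only windows (17.6%, interval 13.2 to 22.7) and 10.8% of short shared windows. A longer form of the motif, given here by its name alone as the long CTCF form, was added after the highest sequences had been read. It matched 44 windows (17.7%), against 72 KO-only (27.5%, interval 22.2 to 33.3) and 21.2% of short shared windows. Among peaks of up to 500 bp in every set it matched 22.3% of WT-only, 31.3% of KO-only and 21.2% of shared windows, and among peaks of up to 300 bp, a limit chosen after seeing the data, 29.0%, 28.03% and 24.3%. The b motif matched 9.84%, 19.8% and 10.8% at up to 500 bp, and 12.1% (interval 6.63 to 19.9), 21.2% (interval 14.6 to 29.2) and 10.04% at up to 300 bp, where the intervals of WT-only and KO-only windows overlap. At the same limits LEF and TCF matched 8.29%, 3.52% and 4.62%, and 11.2%, 3.79% and 3.96%. The antioxidant motif of NRF2 (TGACNNNGC) matched 18 windows (7.26%, interval 4.36 to 11.2), against 8.02% of KO-only and 12.1% of short shared windows. FOXA (TGTTTAC), SOX (ACAATG) and AP-1 (TGANTCA) matched 6.05%, 17.3% and 12.9%, all within 2 percentage points of the short shared windows. None of the 18 motifs was found in 47 windows (18.9%), close to the 18.2% of short shared windows. The median GC content was 44.7%, against 44.3% in KO-only and 47.0% in short shared windows.

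At the GPX2 locus (chr14:64939152-64942746, minus strand) neither genotype had a peak that was specific to it. The strong WT peak over the gene start (chr14:64942367-64943269, −log10 q 11.3) is not among the 248, because a KO peak of 2.11 (chr14:64942768-64943283) overlaps it from just outside the gene. The peaks at the far end of the gene, 4.57 in WT and 6.72 in KO, overlap as well. Neither genotype had a peak inside the gene away from its ends. The study reports that stretch as deleted in the KO lines, so it cannot be compared between genotypes. The deletion as reported also reaches into both peaks at the gene start and into the WT peak at the far end.

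RNA was then asked of the genes near the peaks, as a readout that the rule did not use. GPX2 itself checks the labels: at day 8 it had 99.8 and 115 CPM (counts scaled to library size) in WT, 136 and 118 in WT with H2O2, 25.9 and 24.4 in KO, and 37.3 and 41.5 in KO with selenium. All 4 KO libraries were lower than all 4 WT libraries but none was at 0, and the log2 fold change of KO over WT was −2.07 ± 0.18 (SE; edgeR quasi-likelihood test, adjusted p = 0.104). At day 6 GPX2 had 3.85 and 5.62 CPM in KO and 17.7 and 7.49 in WT. Libraries held 4234408 to 8617728 counts at day 8 and 7315509 to 9725172 at day 6. Of the markers of the labelled cells, FOXA2 had 122 to 149 CPM in WT and 132 to 157 in KO at day 8, GATA4 303 to 424 and 285 to 383, and SOX17 60.9 to 78.9 and 57.1 to 85.8, so that the groups overlap in all of them. The pluripotent list summed to 177 to 246 CPM in WT and 225 to 448 in KO. Of it, ZFP42 alone had 174.4 to 174.6 CPM in WT and 184 to 203 in KO, while NANOG had 0 to 3.38 and 0.922 to 17.4. The hepatic list summed to 8089 to 13050 CPM in WT and 8679 to 15980 in KO, the highest of the marker lists. Of it, APOA1 did not overlap, with 3378 to 3896 CPM in WT and 4516 to 4588 in KO. The neural list summed to 101 to 129.5 CPM in WT and 135 to 163 in KO, without overlap. Most of that was NES, with 99.1 to 128 and 135 to 150. The mesenchyme list summed to 425 to 964.5 CPM in WT and 466 to 507 in KO. Of it, PDGFRA was lower in KO without overlap, with 312 to 363 in WT and 280 to 305 in KO.

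No gene near the peaks passed the test at day 8. The peaks had 225 nearest genes within 100 kb, of which 117 had no counts at all at day 8 and 52 had enough to be tested. Of those 52, 0 passed an adjusted p of 0.05 with edgeR between KO and WT, as did 0.00% of all 14470 genes, and DESeq2 and limma-voom also called 0 of the 52 (2 and 0 of all genes). At an unadjusted p under 0.05 there was 1 of 52, RPL12P4, against 1.22% of all genes. The median log2 fold change of the 52 was −0.03, with 29 below 0 and a range from −1.86 (GRM3) to 3.47 (PAX6), beside −0.00202 for all genes. The CPM ranges of WT and KO did not overlap in 10 of the 52, while they did not overlap in 26.7% of all genes. At this depth and this spread between libraries, the test found 36% of simulated 4-fold changes and 2% of 2-fold changes. Most differences of these sizes were therefore not detectable. In bulk RNA, fewer cells that express a gene and less RNA per cell cannot be told apart.

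Most genes with a peak at their start had too few counts to be tested. Of 14 such genes, counting a shared start under both genes, only MXRA8 and APOH were tested, and 7 of the 13 peaks have mostly repeated sequence. MXRA8, a cell surface protein of the matrix, had 73.7 and 29.3 CPM in WT and 52.5 and 51.1 in KO at day 8. Its log2 fold change was 0.05 ± 0.39. APOH, an apolipoprotein made by liver cells, had 2.25 and 3.82 CPM in WT and 0.924 and 5.07 in KO. Its log2 fold change was −0.01 ± 0.99. In both genes the KO values lay within or across the WT range.

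Within 10 kb of a peak there were 22 tested genes. Their log2 fold changes ran from −0.37 (HBEGF) to 0.91 (HELLPAR), with 11 below 0 and 19 (86.4%) within 0.5 of 0, beside 84.9% of all genes tested, and none had an unadjusted p under 0.05. APELA, the gene of a small hormone of early endoderm, had a peak 5.45 kb away and 149 and 190.2 CPM in WT against 106 and 170.3 in KO. The groups overlap, at a log2 fold change of −0.27 ± 0.46. FBXL4, whose product acts in mitochondria, had a peak in its intron 3.18 kb from its start and 17.5 and 18.4 CPM in WT against 14.4 and 18.2 in KO. The groups overlap here as well. ZFPM1, a GATA cofactor, differed by 0.11 ± 0.32, and SMURF2, a ubiquitin ligase of the TGF-β pathway, by −0.09 ± 0.20.

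**Figure D2:**
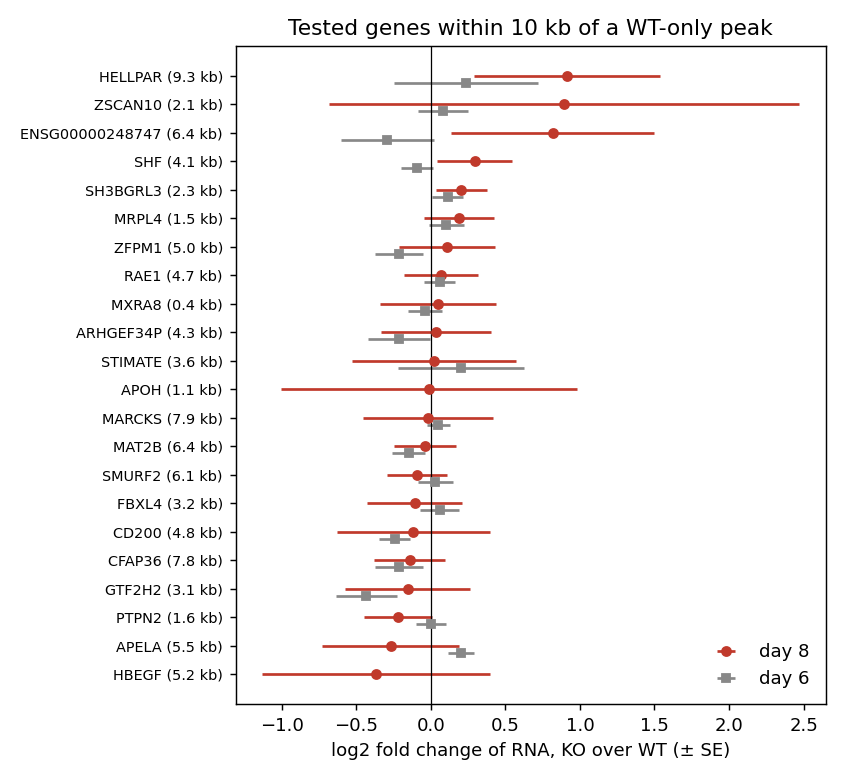
Log2 fold change of KO over WT (± SE) for the 22 tested genes whose start lies within 10 kb of a WT-only peak, at day 8 (circles) and, where tested, day 6 (squares). The day 8 points lie between −0.37 and 0.91 and 19 of them within 0.5 of 0.

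None of the tested genes that hold or neighbour the highest peaks passed either. MMEL1, TTC34, CPHXL, DCDC1, FCGBP, PAFAH1B2P2, RNF32 and BHLHE22 had too few counts to be tested at day 8. KCNJ15 had 3.01 and 4.55 CPM in WT and 2.40 and 4.15 in KO (log2 fold change −0.19 ± 0.66). LMBR1 had 67.3 and 60.7 CPM in WT and 60.3 and 52.8 in KO (−0.15 ± 0.19). TCF7L1 had 90.2 and 54.9 CPM in WT and 113 and 48.6 in KO (0.19 ± 0.59). NAXD had 61.8 and 55.8 CPM in WT and 63.6 and 58.5 in KO (0.08 ± 0.18). In LMBR1 the higher KO library was below the lower WT library, and in KCNJ15, TCF7L1 and NAXD the groups overlapped. OTUD7A had 2.07 and 0.909 CPM in WT and 1.29 and 2.07 in KO.

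Of 14 lists of endoderm, lineage and signalling genes, a single listed gene was the nearest to a peak. PAX6, a transcription factor of eye, brain and endocrine pancreas, lies 93.1 kb from a peak of 6.81. Of the strong WT peaks, 508 are nearest to a listed gene, so the share is 0.197%, beside 0.420% among all strong WT peaks. No peak was nearest to a hepatic, pancreatic, intestinal, WNT or antioxidant gene of the lists. These lists had only 34, 33, 23, 78 and 50 strong WT peaks nearest to them, too few to show a share below 0.420%. Only the nearest gene start of any gene type counts, so the peak inside TCF7L1 is assigned to ENSG00000246575. PAX6 had 1.13 and 0 CPM in WT, 21.1 and 3.19 in WT with H2O2, 12.4 and 0 in KO, and 20.9 and 0.359 in KO with selenium. In every group it was the library numbered 5 that was higher, and POU5F1 and NANOG also varied widely between libraries (2.73 to 652 and 0 to 60.5 CPM). Their part in the PAX6 values was not tested.

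With H2O2 or selenium the same 52 genes gave 0 calls each. In WT with H2O2 against WT, 0.00% of all genes passed with edgeR, and at an unadjusted p under 0.05 there was 1 of the 52 against 0.898% of all genes. The median was −0.03. In KO with selenium against KO, 0.00% of all genes passed, and 0 of the 52 had an unadjusted p under 0.05 against 0.995% of all genes. The median was 0.09. DESeq2 gave 0 in both. These comparisons share the WT or the KO libraries with that of KO against WT.

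At day 6, 50 of the nearest genes were tested and 0 passed with edgeR or DESeq2, against 0.383% of all 14633 genes (19 lower and 37 higher in KO). At an unadjusted p under 0.05 there were 6 of 50, against 9.55% of all genes. They were NLGN1, CACNA2D1, BRIP1, APELA, HIC2 and CD200. NLGN1, a synaptic adhesion protein, had 1.76 and 0.954 CPM in WT and 2.92 and 3.47 in KO, a log2 fold change of 1.20 ± 0.41 (edgeR, adjusted p = 0.351). BRIP1, a helicase of DNA repair, changed by −0.54 with the same test not passed. The median over the 50 was 0.00113. The simulated test found 68% of 2-fold and 93% of 4-fold changes at day 6. The ATAC-seq was made at day 8 only.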

How the data were processed

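HUES8 WT and GPX2 KO cells were profiled by ATAC-seq and bulk RNA-seq. The authors trimmed ATAC reads with Trim Galore, aligned them to hg38 with Bowtie2, removed duplicates, mitochondrial and blacklisted reads, merged the libraries of a genotype and called broad peaks with MACS2. The deposited files give each peak's fold over background and −log10 q but no read depth. For RNA the authors used fastp, STAR and featureCounts (2.0.1 in the file header) on GRCh38 with Ensembl 108, without a strand option, and the deposited values are whole counts without normalization. Reads from a gene and an antisense partner therefore cannot be told apart.

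Peaks were intersected by 1 bp, placed against the gene models of the count table (gene start, then exon, intron, between genes), and motifs were searched on both strands of the central 300 bases. Repeated sequence was counted as 31-base words found more than once in hg38. Shares have 95% Clopper-Pearson intervals. Gene counts went into edgeR's quasi-likelihood test (version 4.0.16, R 4.3.3) after filterByExpr and TMM scaling, p-values were adjusted by Benjamini-Hochberg across every tested gene, and 0.05 was the limit, with the 8 day 8 libraries in 1 fit, and checked on simulated data. Alternatives were DESeq2 1.42.0, limma-voom 3.58.1, other limits and left-out libraries. Regions named are the 20 of highest −log10 q, those nearest to listed genes, at the limit and at GPX2. The 10 kb limit, the genes with a peak at their start and the day 6 test were planned, and which genes of these are named was chosen after their values were seen. The peaks, lists and motifs were chosen with earlier results of these data known. Of the markers and motifs examined, 1 of each is not reported here. Single-cell files were not used here.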

Additional observations from a re-analysis of the deposited data

How the results depend on the processing

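The number of peaks follows the limits of the rule: 2771 at a −log10 q of at least 3, 4 at 10, 97 with no KO peak within 5 kb, 55 of at least 500 bp, and 12383 where a KO peak counts only from 5. Peaks at a gene start numbered 8 within 500 bp, 26 within 2.5 kb and 6 without mostly repeated windows. Only 143 peaks in place of 227 had a gene start within 100 kb where genes tested at day 8 alone count. In the central 150 bases of WT-only windows GATA matched 26.6%, LEF and TCF 3.63%, CTCF b 3.23% and the long CTCF form 6.45%. The shares of the other sets were lower there as well. In KO-only and short shared windows GATA matched 24.4% and 23.3%. LEF and TCF matched 1.145% and 2.05%, and CTCF b 9.54% and 5.67%. In peaks of up to 300 bp the long CTCF form matched 28.97% and HNF4 0% of windows. Leaving out repeated windows, the limits of 300 and 500 bp for motifs, and the long CTCF form were chosen after seeing the data.

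Without the filter beyond 1 count, 1 nearest gene (PAX6) passed between KO and WT and 2 (PAX6, ZSCAN10) with H2O2. Leaving out each library gave 0 calls at day 8 and 0 to 2 at day 6 (BRIP1 and SLC16A9 without WT library E2). Over all genes at day 6, edgeR called 56, DESeq2 149, the fit without a filter 580 and the fits without 1 library 201 to 977. Libraries that share a number at day 8 deviated together (correlations 0.329 to 0.677) and those sharing a letter at day 6 less so (0.243), but with 2 numbers they share only a number. With the replicate block 0 nearest genes passed in every comparison, while over all genes it called 2 (KO), 26 (H2O2), 0 (selenium) and 842 (day 6). The cause of these changes was not tested. No peak of at least 10 had a tested nearest gene. Depth is unknown for the peaks.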
